A study of Mus musculus with 14 samples.

Results

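A set of 10 immediate early genes was followed through brown adipose tissue of mice that had lost, or kept, a mitochondrial RNA-binding protein at 2 housing temperatures. They are Fos (ENSMUSG00000021250), Fosb (ENSMUSG00000003545), Jun (ENSMUSG00000052684), Junb (ENSMUSG00000052837), Egr1 (ENSMUSG00000038418), Egr2 (ENSMUSG00000037868), Nr4a1 (ENSMUSG00000023034), Ier2 (ENSMUSG00000053560), Klf4 (ENSMUSG00000003032) and Klf6 (ENSMUSG00000000078). These 10 genes of 35275 in the table were chosen by the difference between temperatures in knockouts, in which Fos and Egr1 were among the most changed genes. That knockout temperature difference is therefore given as values with no test. All 10 passed the expression filter of at least 1 FPKM in at least 3 animals, but Fosb and Egr2 did so only through the thermoneutral knockouts: 1 and 2 of the other 11 animals reached 1 FPKM.

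RNA sequencing covered 14 mice of strain C57BL/6, all 8 weeks old and all with floxed Lrpprc alleles (LrpprcFF). Controls were LrpprcFF without Cre. Knockouts were LrpprcFF Ucp1-Cre, in which the promoter of the brown fat uncoupling gene drives Cre, so that deletion is aimed at Ucp1-expressing cells and other cells of the tissue keep Lrpprc. At room temperature (22 °C) there were 4 controls and 4 knockouts, and at thermoneutrality (30 °C) there were 3 controls and 3 knockouts. Each library was 1 animal. The labels name brown adipocytes, but RNA came from homogenized tissue, so a change in cell numbers and a change in RNA per cell cannot be told apart.

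Immediate early genes are switched on within minutes of a stimulus, without new protein synthesis, by transcription factors already present in the cell, such as the serum response factor with its partners and the cAMP-responsive factor CREB. Their products are mostly transcription factors that act on later genes, and their short-lived transcripts fall again when the stimulus ends. In brown fat, noradrenaline released in the cold raises cAMP, and growth factor, stress and inflammatory signals, as well as handling and dissociation of tissue, are known to induce the same genes.

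Upstream sequences are shown first because the known inducers act there. RefSeq windows on GRCm38.p6 of the 250 bases before a start site were searched for 8 of the genes, all but Egr1 and Ier2. The motif TGACG, the core of the CREB site, was found on either strand in 6 of 8 genes and in 17.8% of all 32851 windows. The EGR motif GCGNGGGCG was found in 3 of 8 genes and 4.7% of windows, and the CArG box, to which the serum response factor binds, in 1 of 8 (Egr2) and 1.47%. The full palindrome TGACGTCA, which contains the core, was found in 0 of 8 and 1.55% of windows, and the AP-1 motif TGANTCA in 0 of 8 and 6.75%. A gene with several starts, as Egr2 with 5, counts once if any of its windows holds the motif. Windows of 4 genes with a match and of Klf6, which had none, are printed 5′ to 3′ on the gene's own strand, with motif matches on either strand in capitals. Fos lies at chr12:85473640-85473889 (plus strand), Fosb at chr7:19310046-19310295 (minus), Junb at chr8:84978749-84978998 (minus), Nr4a1 at chr15:101266596-101266845 (plus) and Klf6 at chr13:5861239-5861488 (plus).
Fos: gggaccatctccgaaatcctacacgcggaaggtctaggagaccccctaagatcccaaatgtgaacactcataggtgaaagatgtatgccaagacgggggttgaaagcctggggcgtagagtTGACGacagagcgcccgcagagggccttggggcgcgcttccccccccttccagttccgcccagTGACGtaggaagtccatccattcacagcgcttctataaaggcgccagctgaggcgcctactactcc
Fosb: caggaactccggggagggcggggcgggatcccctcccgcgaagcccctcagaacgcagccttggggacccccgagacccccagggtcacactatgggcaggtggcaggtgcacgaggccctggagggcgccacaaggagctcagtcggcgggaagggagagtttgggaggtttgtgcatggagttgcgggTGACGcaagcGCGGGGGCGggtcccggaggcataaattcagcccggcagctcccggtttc
Junb: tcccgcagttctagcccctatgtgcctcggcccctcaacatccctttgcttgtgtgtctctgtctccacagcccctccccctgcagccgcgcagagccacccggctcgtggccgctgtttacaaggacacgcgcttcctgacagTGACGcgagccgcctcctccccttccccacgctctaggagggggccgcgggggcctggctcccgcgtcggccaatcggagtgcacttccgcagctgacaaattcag
Nr4a1: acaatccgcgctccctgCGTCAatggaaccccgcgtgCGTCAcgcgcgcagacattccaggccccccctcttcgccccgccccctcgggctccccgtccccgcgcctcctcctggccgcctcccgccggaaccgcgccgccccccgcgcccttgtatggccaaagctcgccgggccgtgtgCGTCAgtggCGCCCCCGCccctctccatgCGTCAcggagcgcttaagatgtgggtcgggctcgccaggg
Klf6: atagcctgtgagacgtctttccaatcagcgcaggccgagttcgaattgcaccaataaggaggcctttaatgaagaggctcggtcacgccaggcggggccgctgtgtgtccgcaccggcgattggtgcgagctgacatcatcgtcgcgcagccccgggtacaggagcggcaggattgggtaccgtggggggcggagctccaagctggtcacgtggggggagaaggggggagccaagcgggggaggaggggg
Positions are counted back from the start site. In Fos the TGACG matches began at -129 and -66. Nr4a1 had 4 such matches, all on the opposite strand (read there as CGTCA), and an EGR match at -60. Fosb had a TGACG match at -60 and an EGR match at -50. These matches are letters in the window and not shown binding sites. Sequence beyond the 250 bases was not searched, nor were Egr1 and Ier2. A gene without a match here may therefore have such a site elsewhere.

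Libraries held 15.9 to 21.3 M fragments, estimated from the steps between low FPKM values (fragments per kilobase of gene and per M fragments sequenced). Lrpprc, the targeted gene, ranged from 23.2 to 47.1 FPKM in controls and from 9.34 to 12.5 FPKM in knockouts at 22 °C, and from 28.6 to 31.0 against 5.95 to 9.90 FPKM at 30 °C. Ucp1, which defines brown adipocytes, ranged from 299.5 to 3677 FPKM over the 14 animals. Xist, a transcript of the inactive X chromosome, had 9.01 to 18.4 FPKM in all 6 thermoneutral animals and at most 0.0141 in the 8 room-temperature animals. Ddx3y, on the Y chromosome, ran the other way, with 14.4 to 23.1 FPKM in the 8 and at most 0.0244 in the 6. Effects of temperature and of sex therefore cannot be told apart in any comparison between temperatures, and the labels state no sex.

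Across the 4 groups the thermoneutral knockouts had the highest mean of all 10 genes. Thermoneutral controls came second for 9 of the 10, with the exception of Klf6. At room temperature the genotypes overlapped for all 10 on scaled values, and no order between them can be given. Values below are deposited FPKM, and animals are numbered within their group.

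Fos encodes the founding FOS protein, which pairs with a JUN protein to form the transcription factor AP-1. Fos had 0.162, 1.45, 1.42 and 1.39 FPKM in the room-temperature controls 1 to 4, and 0.988, 1.83, 0.387 and 1.98 in the room-temperature knockouts. It had 2.86, 36.3 and 16.9 FPKM in the thermoneutral controls 1 to 3 and 127, 218 and 72.3 in the thermoneutral knockouts. The room-temperature groups overlapped, all thermoneutral controls lay above them, and all thermoneutral knockouts lay above those. The mean was 139 ± 73.7 FPKM in thermoneutral knockouts (SD, n = 3) and 18.7 ± 16.8 in thermoneutral controls (SD, n = 3), a 7.45-fold ratio of means.

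Fosb, a second FOS family partner, was the weaker of the pair. It had 0.026, 0.143, 0.562 and 0.316 FPKM in room-temperature controls and 0.0854, 0.125, 0.167 and 0.3 in room-temperature knockouts. Thermoneutral controls had 0.266, 3.42 and 0.93 FPKM, and thermoneutral knockouts 17.3, 17.3 and 5.62. Thermoneutral control 1 lay within the room-temperature range, and no knockout at 30 °C overlapped any other animal. The lowest room-temperature value rested on an estimated 3.3 fragments, so folds against that group are imprecise.

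Jun and Junb encode the JUN partners of FOS, of which JUN is the strong activator and JUNB the weaker one. Jun had 9.73, 11.5, 17.4 and 16.7 FPKM in room-temperature controls and 14.6, 22.2, 26.4 and 17.7 in room-temperature knockouts. It had 45.3, 149 and 114 FPKM in thermoneutral controls and 282, 284 and 235 in thermoneutral knockouts. Jun was thus well expressed in every animal, and its thermoneutral knockouts were closer together than those of Fos. Junb had 7.11, 12.2, 10.1 and 11.6 FPKM in room-temperature controls and 18.6, 16.2, 13.2 and 18.6 in room-temperature knockouts. It had 21.9, 133 and 94.9 FPKM in thermoneutral controls and 283, 310 and 192 in thermoneutral knockouts. The deposited Junb values of the 2 room-temperature groups did not overlap, but they did after scaling of the libraries. The strand of the counting is not given in the sources used here: in the annotation 689 bases of Jun overlap the antisense gene Junos, which reached 3.10 FPKM, and 351 bases of Junb overlap Prdx2 on the opposite strand, which reached 140 FPKM.

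Egr1 and Egr2 encode zinc-finger factors of the early growth response family, which bind the GC-rich EGR motif. Egr1 had 1.10, 5.72, 1.80 and 7.22 FPKM in room-temperature controls and 3.74, 3.95, 2.06 and 8.46 in room-temperature knockouts. It had 8.70, 118 and 50.5 FPKM in thermoneutral controls and 175, 402 and 145 in thermoneutral knockouts. The deposited values of thermoneutral knockouts and controls were apart, but knockout 3 and control 2 changed order after scaling. Egr2 had 0.115, 0.0723, 0.248 and 0.114 FPKM in room-temperature controls, from an estimated 4.6 to 17.2 fragments, and 0.576, 0.862, 0.212 and 0.433 in room-temperature knockouts. It had 0.903, 5.27 and 3.16 FPKM in thermoneutral controls and 33.1, 27.3 and 13.8 in thermoneutral knockouts. Its room-temperature knockout mean was 3.79-fold the control mean, but 1 knockout lay within the control range.

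Nr4a1 encodes an orphan nuclear receptor that cAMP induces in many tissues. It had 4.38, 18.4, 62.2 and 18.3 FPKM in room-temperature controls and 7.32, 14.1, 32.2 and 12.7 in room-temperature knockouts. Thermoneutral controls had 62.7, 283 and 160 FPKM, and thermoneutral knockouts 550, 512 and 399. Room-temperature control 3 was level with thermoneutral control 1, and the knockouts at 30 °C stood above all other animals. Ier2 encodes a small nuclear protein of the immediate early response. It had 8.21, 12, 11.4 and 17.1 FPKM in room-temperature controls and 15.1, 13.1, 14.1 and 16.6 in room-temperature knockouts. It had 19.8, 115 and 56.9 FPKM in thermoneutral controls and 197, 243 and 145 in thermoneutral knockouts. Its thermoneutral control 1 was only 1.16-fold above the highest room-temperature control.

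Klf4 and Klf6 encode Krüppel-like zinc-finger factors, which several cell types also express without a stimulus. Klf4 had 4.45, 11.3, 14.2 and 15.4 FPKM in room-temperature controls and 11.1, 10.5, 8.73 and 7.99 in room-temperature knockouts. It had 9.26, 20.8 and 15 FPKM in thermoneutral controls and 93.0, 59.6 and 82.2 in thermoneutral knockouts. Klf6 had 9.76, 12.5, 14.1 and 31.4 FPKM in room-temperature controls and 15.4, 19.6, 16.4 and 18.6 in room-temperature knockouts. It had 13.5, 16.4 and 16.3 FPKM in thermoneutral controls and 48.9, 33.6 and 37.2 in thermoneutral knockouts. On deposited FPKM the thermoneutral controls overlapped the room-temperature animals for both genes, and only the thermoneutral knockouts stood apart. After scaling, thermoneutral knockouts 2 and 3 lay below room-temperature control 4 for Klf6.

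**Figure D1:**
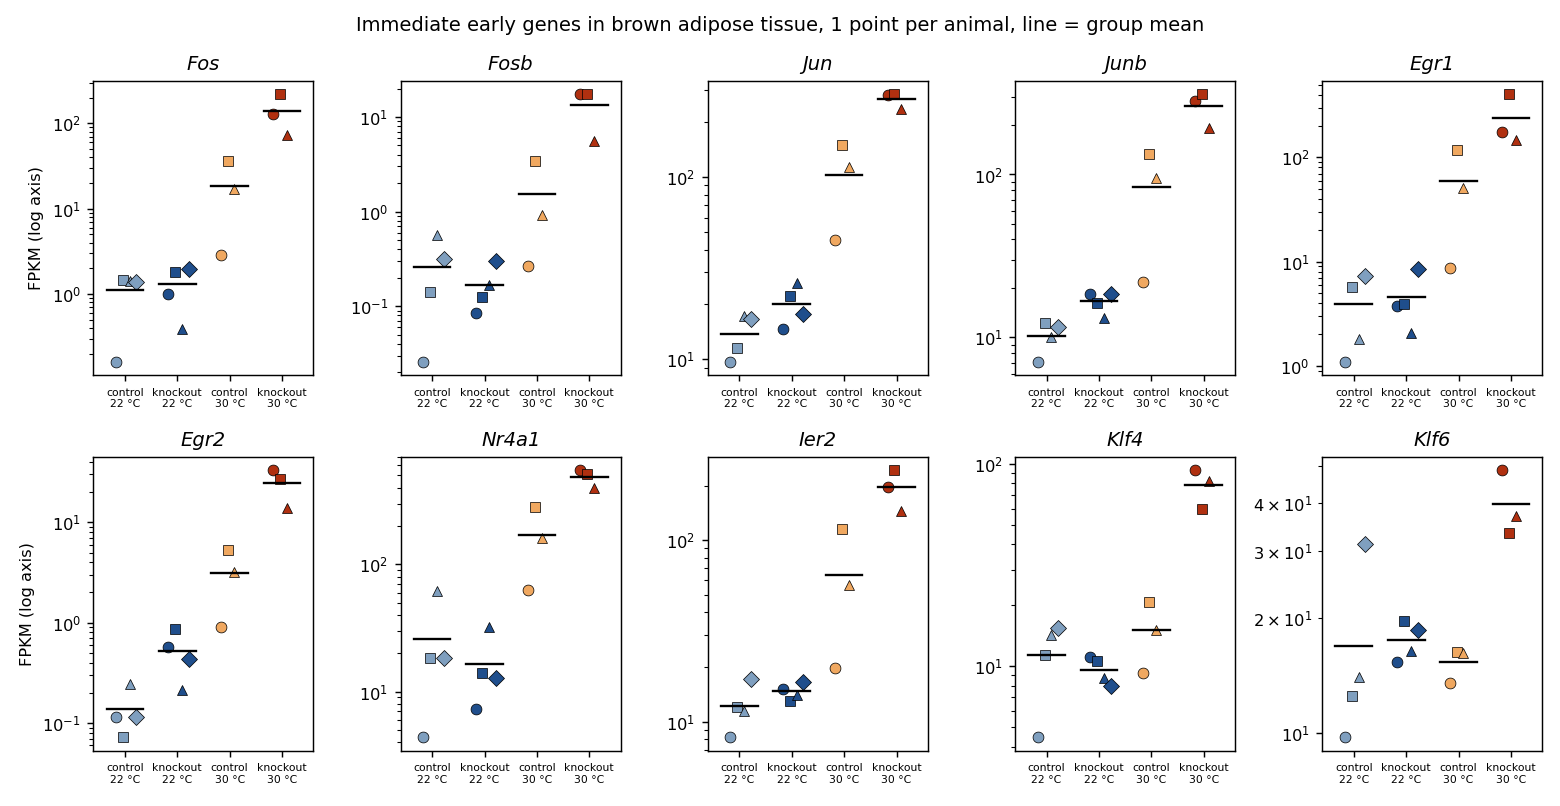
Deposited FPKM of each of the 10 genes (log10 axis) in every animal, by group; points are animals and bars are group means. Thermoneutral knockouts have the highest mean in every panel, and thermoneutral controls are spread widely for Fos (2.86 to 36.3 FPKM) but not for Klf6 (13.5 to 16.4 FPKM).

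The effect of the knockout at thermoneutrality was tested with limma on log2 of scaled FPKM plus 1, with p-values adjusted over the 13079 genes that passed the filter; an adjusted p under 0.05 is called. The animals of this comparison include the thermoneutral knockouts that chose the genes, so it is not independent of the choice. Of the 10 genes 8 rose, where 8.82% of all genes were called higher and 5.28% lower. Fosb and Egr2 entered the test only because they are high in these knockouts, so their calls are no support for the count; of the other 8 genes 6 rose. Without the filter Fosb and Egr2 were called as well. Fos was higher by 2.93 on the log2 scale (SE 0.66, limma adjusted p = 0.0116) and Fosb by 2.33 (SE 0.43, adjusted p = 0.00465). Jun was higher by 1.23 (SE 0.35, limma adjusted p = 0.0346) and Junb by 1.66 (SE 0.47, adjusted p = 0.0338). Among the zinc-finger factors, Egr2 was higher by 2.46 (SE 0.37, limma adjusted p = 0.00181), Klf4 by 2.06 (SE 0.35, adjusted p = 0.0033) and Klf6 by 1.02 (SE 0.29, adjusted p = 0.0324). Ier2 was higher by 1.59 (SE 0.45, limma adjusted p = 0.0316). Egr1 differed by 2.19 (SE 0.78, limma adjusted p = 0.0794) and Nr4a1 by 1.46 (SE 0.74, adjusted p = 0.215), and neither passed. The scaled ranges of knockouts and controls did not overlap for 9 of the 10 (all but Egr1), where 22.2% of all genes had knockouts above controls without overlap. By log2 fold change Fos ranked 11 among 13079 genes and Klf6 ranked 525.

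Klf4 was called in all 17 alternative analyses of the thermoneutral comparison, and Fos in 16. Egr2 was called in all 17 and Fosb in 16. Both were in the main test only through the thermoneutral knockouts, so the stability of their calls adds no support. The counts given next include both genes wherever they were called. The other calls were less stable: Jun, Junb and Klf6 passed in 10 of 17 and Ier2 in 8. The number of genes called fell to 5 without thermoneutral control 1 (Jun, Ier2 and Klf6 lost) and to 6 without control 3 (Ier2 and Klf6 lost). Without control 2 Klf6 was lost and Egr1 was gained (3.01, limma adjusted p = 0.0358). It fell to 4, 5 and 4 without thermoneutral knockout 1, 2 or 3, which cost Jun, Junb and Ier2 their calls each time and Klf6 its call in the first and the last. It was 4 with no filter or with a correction for GC content and length, and 3 when only the 2 groups compared were fitted. Without thermoneutral control 1 the difference of Jun was 0.73 (limma adjusted p = 0.102). Other genes also moved with single animals. With each animal left out the difference of Junb ranged from 0.89 to 2.18, of Ier2 from 0.93 to 2.18, of Fos from 2.01 to 3.66, of Egr1 from 1.18 to 3.01 and of Nr4a1 from 0.88 to 1.97, each lowest without thermoneutral control 1.

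At room temperature the same comparison gave 0 calls among the 10 genes with limma, 0 at an unadjusted p under 0.05 and 0 with limma voom on recovered reads. Of all genes 1.97% were called in either direction, and 2060 of 13079 had an unadjusted p under 0.05. On log2 of scaled FPKM plus 1, the differences ran from -0.57 for Nr4a1 (SE 0.64, limma adjusted p = 0.718) to 0.38 for Junb (SE 0.41, adjusted p = 0.707). Adding 1 shrinks differences of genes with low values. Egr2 differed by 0.34 on this scale and by up to 1.509 among the alternatives. It was called in none of them (lowest limma adjusted p = 0.27). The median over the 10 genes was -0.005, beside 0.002 over all genes. Fos differed by -0.02 with an SE of 0.57. The direction of Fos, Fosb, Egr1, Nr4a1, Ier2, Klf4 and Klf6 changed under at least 1 alternative.

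The 2 temperatures were compared in controls, whose libraries the choice of genes did not use. Of the 10 genes 7 were higher at 30 °C, where 20.6% of all genes were called higher and 18.2% lower. Egr2, called here, and Fosb, not called, were in the tested set only through the thermoneutral knockouts, which did choose the genes, and 2 and 1 of the 7 controls reached 1 FPKM. Of the other 8 genes 6 were higher. Egr1 was higher by 3.15 on the log2 scale (SE 0.73, limma adjusted p = 0.00548), Nr4a1 by 2.83 (SE 0.69, adjusted p = 0.00718) and Fos by 2.76 (SE 0.62, adjusted p = 0.00443). Jun was higher by 2.59 (SE 0.33, limma adjusted p = 0.000291) and Junb by 2.50 (SE 0.44, adjusted p = 0.00141). Ier2 was higher by 1.93 (SE 0.42, limma adjusted p = 0.00385) and Egr2 by 1.74 (SE 0.35, adjusted p = 0.00268). The other 3 did not pass: Fosb differed by 0.84 (SE 0.40, limma adjusted p = 0.111), Klf4 by 0.34 (SE 0.33, adjusted p = 0.439) and Klf6 by -0.10 (SE 0.27, adjusted p = 0.802). Scaled ranges were apart for 6 of the 10, with 23.6% of all genes higher at 30 °C without overlap. Egr1, Nr4a1, Fos, Jun and Junb ranked 8, 10, 11, 15 and 17 among 13079 genes by log2 fold change. On deposited FPKM the ratio of means was 22.6 for Egr2, 16.9 for Fos, 14.9 for Egr1, 1.33 for Klf4 and 0.909 for Klf6. All 7 were called in each of the 18 alternatives, apart from Egr2, which did not pass the filter when the control groups alone were fitted. Fosb was called in 2 alternatives, without thermoneutral control 1 (1.26, limma adjusted p = 0.0331) and with sample weights (1.085, adjusted p = 0.0346), and its difference fell to 0.324 without thermoneutral control 2. The called differences of Fos and Junb ranged from 2.03 to 3.69 and from 1.98 to 3.27 with each animal left out.

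**Figure D2:**
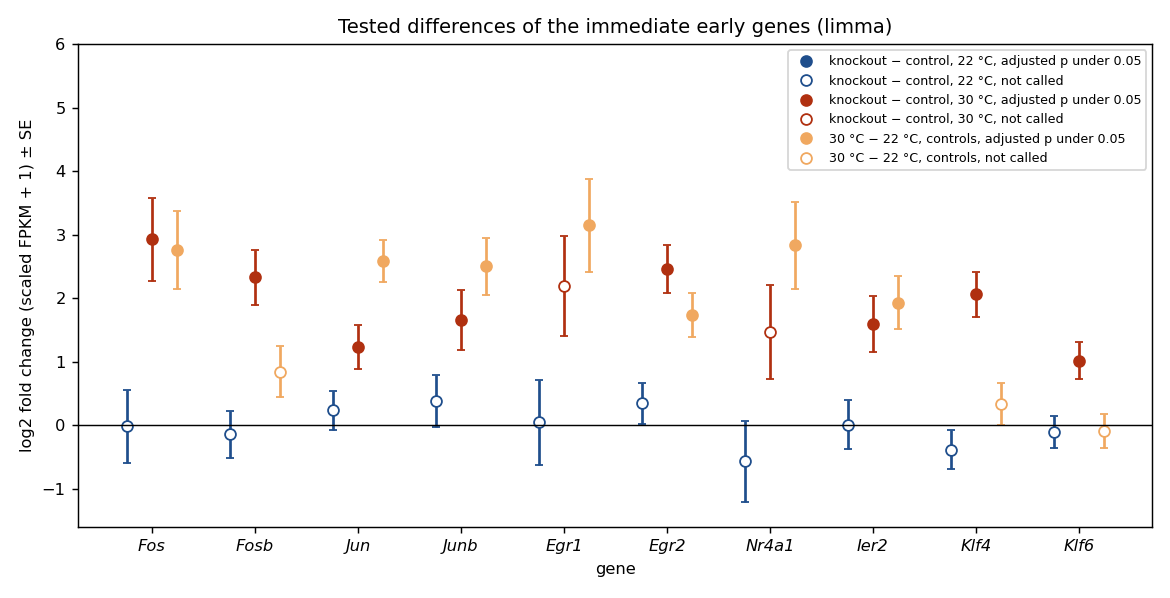
Log2 fold change of each gene (y axis) with its standard error in the 3 tested comparisons, from limma on log2(scaled FPKM + 1); filled points are called at an adjusted p under 0.05. Room-temperature knockout differences lie between -0.57 and 0.38, while thermoneutral knockout differences lie between 1.02 and 2.93.

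Fosb, Klf4 and Klf6 were thus called between genotypes at 30 °C but not between temperatures in controls, and Egr1 and Nr4a1 the other way round. The 2 comparisons share the thermoneutral controls, and the difference between them was not tested. In knockouts the temperature difference, which chose the genes, was 5.71 for Fos, 5.30 for Egr1, 4.86 for Nr4a1, 3.85 for Egr2, 3.78 for Junb, 3.58 for Jun, 3.51 for Ier2, 3.31 for Fosb, 2.78 for Klf4 and 1.03 for Klf6. All 10 had thermoneutral knockouts above room-temperature knockouts without overlap, as had 31.7% of all genes, and 29.4% of all genes were called higher in that contrast. Nothing is read from these counts. The knockout difference at 30 °C minus that at 22 °C was 2.94 for Fos (SE 0.87), 2.47 for Fosb (SE 0.57), 2.45 for Klf4, 2.15 for Egr1, 2.12 for Egr2 and 2.03 for Nr4a1. It was 1.58 for Ier2, 1.28 for Junb, 1.13 for Klf6 and 0.99 for Jun. These estimates contain the contrast that chose the genes and were not tested. Single animals, mostly thermoneutral controls 1 and 2, moved several of them: with each animal left out they ranged from 0.493 to 1.355 for Jun, 0.507 to 1.798 for Junb, 0.923 to 2.178 for Ier2, 1.143 to 2.967 for Egr1 and 1.451 to 2.614 for Nr4a1.

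On scaled values the thermoneutral controls kept the same order in all 10 genes, and the other groups did so less completely. The orders within groups given next are also on scaled values. Thermoneutral control 1 had the lowest value of its group for 10 of 10 genes and thermoneutral control 2 the highest for 10 of 10. Thermoneutral knockout 3 was lowest for 8 genes, and knockouts 1 and 2 were highest for 6 and 4. Room-temperature control 1 was lowest for 9, and controls 3 and 4 were each highest for 4. Room-temperature knockouts 1 to 4 were highest for 1, 1, 2 and 6 genes and lowest for 4, 1, 4 and 1, with no common order. On deposited FPKM thermoneutral control 1 was above the highest room-temperature control for 7 genes, by 1.01-fold for Nr4a1 to 3.64-fold for Egr2. Thermoneutral control 2 was above it for 9 and control 3 for 8. After the group means were taken away, the Pearson correlation of pairs of these genes over the 14 animals had a median of 0.629 over 45 pairs, from 0.236 for Egr2 with Klf6 to 0.944 for Junb with Ier2. It was above 0 for all 45. The pairs share libraries, so this is a description. The median was 0.446 without thermoneutral control 1 and 0.493 without thermoneutral control 2. The 28 pairs without Klf4 and Klf6, a split made after the values were seen, had a median of 0.782, and the 16 pairs of a KLF gene with one of the others 0.433.

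**Figure D3:**
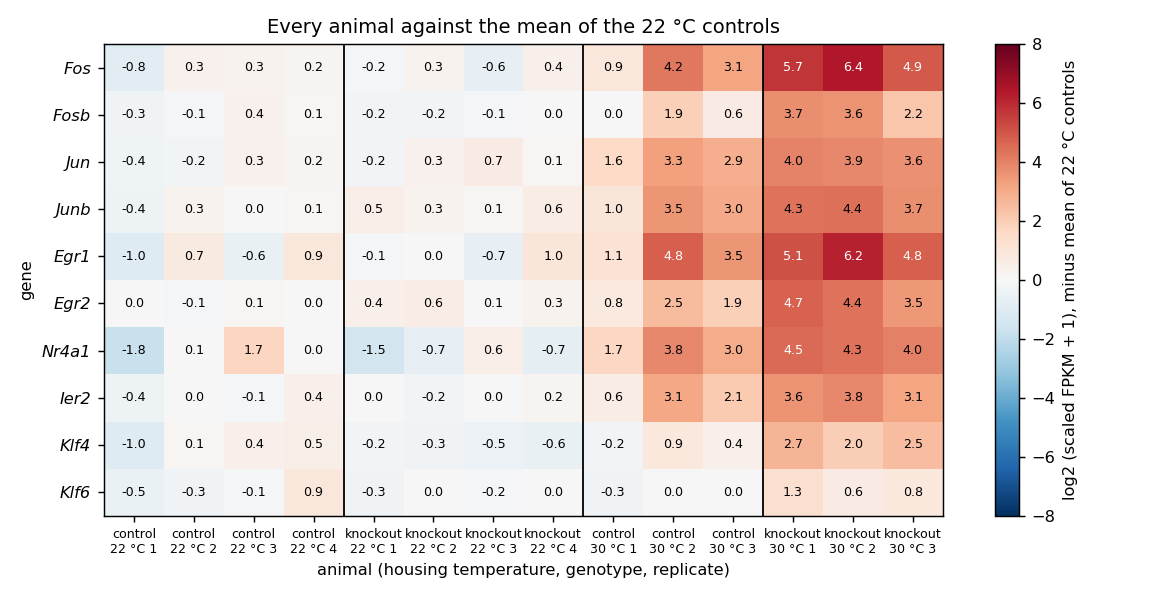
Heat map of log2 of scaled FPKM plus 1 minus the mean of the room-temperature controls (colour scale and printed values), with genes as rows and animals as columns, and black lines between groups. Thermoneutral control 2 stands at 4.23 and control 1 at 0.92 for Fos, and the thermoneutral knockouts at 4.89 to 6.42.

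The most similar genes outside the 10 were sought by the same within-group correlation with the mean of the 10 over 14 animals, among genes with a mean of at least 5 FPKM. They were Zfp36 (r = 0.947), which encodes an RNA-binding protein that promotes mRNA decay, Btg2 (r = 0.931), an antiproliferative immediate early gene, Apold1 (r = 0.927), an immediate early gene of endothelial cells, Egr3 (r = 0.861) and Brd2 (r = 0.846), a bromodomain protein. Apold1 had a mean of 2.61 FPKM in room-temperature controls, 2.43 in room-temperature knockouts, 14.4 in thermoneutral controls and 90.7 in thermoneutral knockouts. Zfp36 had means of 22.0, 20.5, 98.5 and 185 FPKM in the same order.

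The proportions among the genes also differed between groups for some of the pairs examined. Fos FPKM was 1.67% to 12.6% of Jun FPKM in room-temperature controls and 1.47% to 11.2% in room-temperature knockouts. It was 6.33% to 24.3% in thermoneutral controls and 30.7% to 76.8% in thermoneutral knockouts, where the ranges did not overlap. Fos prompted the choice of genes through its level in these same knockouts, so this ratio is a description only. Klf4 was 178% to 221% of Klf6 in thermoneutral knockouts and 42.9% to 127% in the other groups. Junb was 48.3% to 127% of Jun over all groups, and those ranges overlapped. Egr2 stayed at 1.26% to 21.8% of Egr1 over all groups, also with overlap. Fosb was 5.51% to 43.2% of Fos over all groups, again with overlap. FPKM is per length, so these are levels per base of transcript, and the ratios do not depend on the scaling of libraries.

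Paralogues of the 10 genes were next. Of 10 listed, 9 passed the filter, and Egr4, which was listed at 0 in all room-temperature animals, did not. At thermoneutrality 6 of 9 were higher in knockouts and 0 lower (8.82% and 5.28% of all genes); Egr3 passed the filter only through these knockouts, and 5 of the other 8 were higher. The 9 had a median of 1.79 beside 0.07 over all genes. Egr3, another EGR factor, was higher by 2.95 (SE 0.51, limma adjusted p = 0.00344), Klf2, a factor of endothelial and immune cells, by 2.79 (SE 0.50, adjusted p = 0.00425) and Fosl2, a FOS family member, by 2.39 (SE 0.28, adjusted p = 0.000319). In controls 4 were higher at 30 °C and 1 lower (20.6% and 18.2% of all genes). Egr3 was in this test only through the thermoneutral knockouts, and of the other 8 genes 3 were higher and 1 lower. Egr3 rose by 2.12 (SE 0.48, limma adjusted p = 0.00474) and Jund by 1.68 (SE 0.27, adjusted p = 0.00085). Nr4a3, a receptor of the same subfamily as Nr4a1, fell by 1.56 on the log2 scale (SE 0.43, limma adjusted p = 0.0124), from a mean of 2.83 to 0.355 FPKM. Ier5 rose by 1.66 (SE 0.26, limma adjusted p = 0.0008). At room temperature 0 of 9 were called between genotypes with limma. At an unadjusted p under 0.05 there was 1 (2060 of all 13079 genes), Fosl2, which differed by 0.90.

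Other immediate early genes outside these families were counted in the same way. Of 24 listed, 23 passed the filter. At thermoneutrality 9 were higher in knockouts and 0 lower (8.82% and 5.28% of all genes), with a median of 0.94. Arc passed the filter only through these knockouts, and of the other 22 genes 8 were higher. Atf3, a stress-induced factor, was higher by 3.14 (SE 0.71, limma adjusted p = 0.0117), Arc by 2.36 (SE 0.45, adjusted p = 0.00511) and Ccn1, a secreted matrix protein, by 2.15 (SE 0.48, adjusted p = 0.0112). In controls 10 were higher at 30 °C and 1 (Nfil3) lower (20.6% and 18.2% of all genes), with a median of 0.65. Without Arc 9 of 22 were higher and 1 lower. Ccn1 rose by 2.64 (SE 0.45, limma adjusted p = 0.00117), Atf3 by 1.86 (SE 0.66, adjusted p = 0.0405) and Zfp36 by 1.83 (SE 0.46, adjusted p = 0.00851). At room temperature 0 of 23 were called between genotypes with limma, and 5 at an unadjusted p under 0.05 (2060 of all 13079 genes). Among these 5, Atf3 (1.967) and Myc (1.028) were higher in knockouts. Nfkbia (-0.947), Rhob (-0.785) and Per1 (-0.675) were lower.

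Factors that act upstream of immediate early genes moved both ways between temperatures. Of 19 listed, 5 were higher in knockouts at 30 °C and 0 lower (8.82% and 5.28% of all genes), and their median was 0.05 beside 0.07 over all genes. Srf, which encodes the serum response factor, was higher by 1.15 (SE 0.23, limma adjusted p = 0.00746), Rps6ka1 by 0.72 (SE 0.16, adjusted p = 0.0117) and Rps6ka3 by 0.59 (SE 0.16, adjusted p = 0.0262); the latter pair encode kinases of the ERK pathway. In controls 6 were higher at 30 °C and 6 lower, where 20.6% and 18.2% of all genes were. Srf rose by 1.06 (SE 0.22, limma adjusted p = 0.00311) and Rps6ka1 by 0.90 (SE 0.15, adjusted p = 0.00117), and Creb1, which encodes CREB, fell by 0.73 on the log2 scale (SE 0.14, limma adjusted p = 0.00193). Among 13 feedback inhibitors, 6 were higher in knockouts at 30 °C and 0 lower (8.82% and 5.28% of all genes), with a median of 0.92. Dusp2 passed the filter only through these knockouts, and of the other 12 genes 5 were higher. Dusp1, a phosphatase that switches off MAP kinases, was higher by 2.09 (SE 0.63, limma adjusted p = 0.0424), Nab2, a corepressor of EGR factors, by 1.23 (SE 0.27, adjusted p = 0.011) and Spry4 by 1.15 (SE 0.32, adjusted p = 0.0321). In controls 5 were higher and 2 lower at 30 °C (20.6% and 18.2% of all genes). Without Dusp2 4 of 12 were higher and 2 lower. Dusp5 rose by 1.86 (SE 0.49, limma adjusted p = 0.0109), Dusp1 by 1.80 (SE 0.59, adjusted p = 0.0284) and Spry2 by 1.04 (SE 0.21, adjusted p = 0.00246). At room temperature Dusp4 alone of the inhibitors and upstream factors was called between genotypes, higher by 1.81 in knockouts (SE 0.32, limma adjusted p = 0.0141). Of the 19 upstream factors 0 were called there, and 3 at an unadjusted p under 0.05 (2060 of all 13079 genes).

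**Figure D4:**
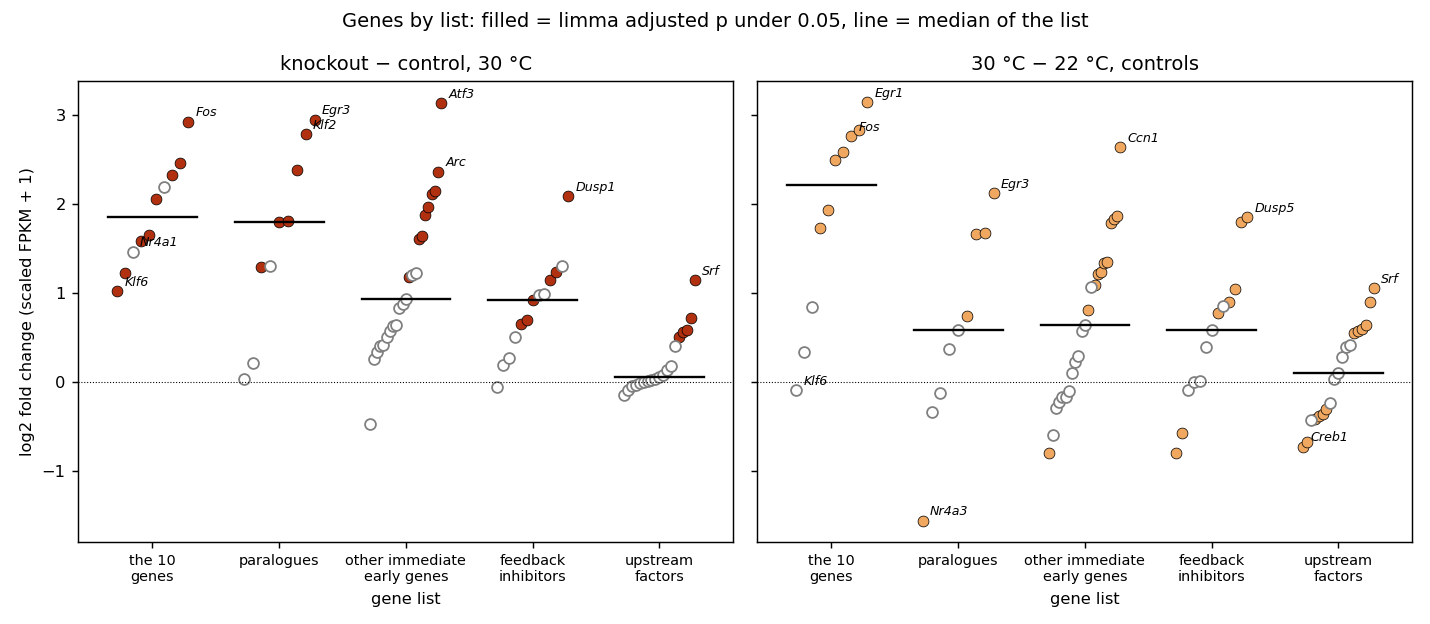
Log2 fold change (y axis) of every tested gene of the 5 lists (x axis) for knockout against control at 30 °C and for 30 °C against 22 °C in controls; points are genes, filled where called, and lines are list medians. The median of the 10 immediate early genes is 1.86 between genotypes at 30 °C and 2.21 between temperatures in controls, and that of the upstream factors is 0.05 and 0.10.

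Markers of some cell types also differed between the groups. All 7 macrophage markers were called higher in thermoneutral knockouts than in controls (8.82% of all genes). Their summed FPKM was 728 to 1940 against 108 to 381. In room-temperature controls the sum was 45.1 to 74.8 and in room-temperature knockouts 100 to 232. In controls 5 of the 7 markers were higher at 30 °C (20.6% of all genes). Within the thermoneutral controls the sum was 108, 145 and 381 in animals 1 to 3. There the immediate early genes were lowest in animal 1 and highest in animal 2. Within the thermoneutral knockouts the sum was 1942, 728 and 1111 in animals 1 to 3. On scaled values, 6 of the 10 genes were highest in knockout 1, 4 in knockout 2, and 8 were lowest in knockout 3. Of 6 fibroblast and preadipocyte markers 5 were higher in thermoneutral knockouts (8.82% of all genes), with sums of 514 to 952 against 220 to 255 FPKM. Of 6 genes listed as brown adipocyte markers, 4 (Ucp1, Cidea, Adipoq and Fabp4) were lower (5.28% of all genes). Plin1 and Pparg were not called. The sums were 7080 to 9040 against 10500 to 12800 FPKM. Most of each sum was Fabp4 (means of 5399 against 7836 FPKM), so the sums mainly follow 1 gene and do not measure brown adipocyte content. Of 6 endothelial markers 0 were called with limma, with sums of 231 to 335 against 246 to 256 FPKM. Of the tested smooth muscle and pericyte, Schwann cell, red cell, and T, B and neutrophil markers 0 were called there as well. Of 6 skeletal muscle markers 0 were called with limma, also at an unadjusted p under 0.05 (3706 of all 13079 genes). All 6 had a higher log2 mean in thermoneutral knockouts than in controls. Their median difference was 1.90 (SE of single markers 1.40 to 1.83), beside 1.86 for the 10 genes. The muscle marker sums were 2020 to 8230 FPKM in thermoneutral knockouts and 17.9 to 10800 in thermoneutral controls. They were 468 to 1200 in room-temperature knockouts and 306 to 4700 in room-temperature controls. Animals 1 to 3 had 10780, 3563 and 17.9 FPKM among thermoneutral controls and 8234, 2024 and 6562 among thermoneutral knockouts. No marker of these lists was at 0 in all animals of a group. The part of these cell types in the immediate early gene differences was not tested.

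Length and GC content of the genes were compared with those of all tested genes, whose median GC content was 50.1% and median span 20772 bases. The gene spans ran from 1522 bases (Ier2) to 20527 bases (Nr4a1), and the transcript GC content from 51.4% (Egr2) to 62.6% (Junb), with Klf6 at 42.4%; Nr4a1 is thus near the median in span, and Egr2 and Fos (51.9%) are little above it in GC content. In controls the median log2 difference between temperatures was 0.05 over all tested genes, 0.34 over the 5587 genes with a GC content of 51.4% or more, and 0.37 over the 3537 of these with a span up to that of Nr4a1. An alternative fit, added after the data were seen, corrected for GC content and the length of the longest transcript, not for gene span. With it 7 of the 10 genes were still called higher at 30 °C in controls. In thermoneutral knockouts against controls 4 were (Fos, Fosb, Egr2 and Klf4). The 4 that lost their calls had differences of 1.07 (Jun, limma adjusted p = 0.0572), 1.39 (Junb, adjusted p = 0.0823), 1.42 (Ier2, adjusted p = 0.0549) and 0.93 (Klf6, adjusted p = 0.0549), beside 1.23, 1.66, 1.59 and 1.02 without the correction.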

How the data were processed

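The deposited table gives FPKM per gene and animal, normalised by the authors to gene length and library depth. Per the submitters' processing notes the build was mm9; the aligner, counter, strand setting and annotation are not given in the sources used here. Symbols came from GENCODE M21 (34490 of 35275 genes). FPKM was divided by the median ratio over 10049 nuclear genes, since mitochondrial transcripts may differ between genotypes. The factors were 0.822 to 0.947 in controls and 1.05 to 1.20 in knockouts, so scaling lowered every knockout relative to every control. Scaled values were taken as log2 of the value plus 1, which understates changes of low genes. Genes with at least 1 FPKM in at least 3 samples were fitted with limma 3.58.1 (R 4.3.3; a mean per group over all 14 samples, eBayes with trend, Benjamini-Hochberg adjustment over 13079 genes), and the script was tested on simulated data. Depth was recovered from FPKM steps (92.4% to 93.9% of low values whole within 0.1 reads); fragment numbers cover counting error only. The genes, lists and alternatives were chosen with earlier results of these data known. Named from each other list were the 3 genes with the largest absolute log2 fold change among those called. Nfil3, Egr4, Nr4a3, Dusp2, the brown adipocyte markers and the marker sums of single animals were named in addition. So were the room-temperature values of Fosl2, Atf3, Myc, Nfkbia, Rhob and Per1. P-values measure the spread between animals. Alternatives covered pseudocount, filter, scaling, fitted groups, eBayes, sample weights, the 2 controls with identifiers beginning with R, and each animal left out. GC and length correction and limma voom on recovered reads were added after the data were seen.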

Additional observations from a re-analysis of the deposited data

Results flagged for a closer look

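Fos had 0.162 FPKM in room-temperature control 1, while the other 3 animals of that group had 1.39 to 1.45 FPKM. The gap was 0.957 of the range of the group, above Dixon's critical value of 0.829 for 4 samples. Chance flags about 1 in 20 groups, and 20 were examined here. This animal was also the lowest of its group for 9 of the 10 genes. Without it Fos was still called between temperatures in controls, by 2.48 on the log2 scale (limma adjusted p = 0.015).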

How the results depend on the processing

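No paired analysis was possible because the labels give animal identifiers and no shared replicate numbers. The number of the 10 genes called higher in thermoneutral knockouts, 8, fell to 4 without a filter on low values, to 4 with the GC and length correction and to 3 with only the 2 groups compared, and was 4 to 8 with each animal left out; in controls between temperatures it was 7, with 7 to 8 under left-out animals, and at room temperature it stayed 0 in all 19 alternatives. Counts in thermoneutral knockouts include Fosb and Egr2 wherever they were called. With no filter more genes were tested. With 2 groups fewer animals were fitted, and the spread came from those groups alone. The cause was not tested for any of these changes. Calls over all genes depended more on the setting. Genes higher in room-temperature knockouts, 119 (139 lower), were 49 without a filter, 3167 (81 lower) with FPKM as deposited, 386 (75 lower) with nuclear genes brought to equal totals, 100 (93 lower) with quantile normalization, 403 with sample weights, 38 with the 2 groups alone and 29 to 140 with an animal left out. Genes higher in thermoneutral knockouts, 1154 (691 lower), were 4280 (291 lower) as deposited, 2225 (409 lower) with equal nuclear totals, 865 (905 lower) with quantile normalization, 2274 with sample weights, 563 with the 2 groups alone and 470 to 1317 with an animal left out. Genes higher at 30 °C in controls, 2688 (2384 lower), were 3200 (1738 lower) as deposited, 2731 (2115 lower) with equal nuclear totals, 2307 (2707 lower) with quantile normalization, 4120 with sample weights, 1330 with the GC and length correction and 1879 to 3054 with an animal left out.

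The directions that turned were all of differences that were not called. Between genotypes at room temperature, Fos was 0.041 with a pseudocount of 0.1, 0.125 as deposited, 0.014 with quantile normalization, 0.053 with equal nuclear totals, 0.094 with limma voom and 0.24 without the 2 controls with R identifiers. Klf6 there was 0.176 as deposited, 0.027 with equal nuclear totals, 0.176 with sample weights and 0.283 without those controls. Leaving those controls out also turned Fosb (0.078), Nr4a1 (0.282) and Klf4 (0.046), sample weights turned Egr1 (-0.154), and quantile normalization turned Ier2 (-0.025). With each animal left out the room-temperature differences ranged from -0.301 to 0.19 for Fos, -0.293 to 0.35 for Egr1, -0.127 to 0.151 for Ier2, -1.156 to 0.009 for Nr4a1 and -0.285 to 0.198 for Klf6. Between temperatures in controls Klf6 was 0.001 as deposited, 0.162 with sample weights, 0.299 without the R controls and 0.202 with the GC and length correction, and ranged from -0.277 to 0.212 with an animal left out; Klf4 ranged from -0.002 to 0.628. The cause was not tested. Egr1 was called in thermoneutral knockouts as deposited (2.485, limma adjusted p = 0.0264), with equal nuclear totals (2.342, adjusted p = 0.0495) and without thermoneutral control 2 (3.007, adjusted p = 0.0358), out of a range of 0.0264 to 0.285. Depth limits the room-temperature levels of Fos, Fosb and Egr2, which rest on few fragments.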
